A study of Canis lupus familiaris with 4 samples.

Results

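Accessible sites that stood alone inside otherwise peak-rich stretches of the dog genome were described, and their change in accessibility after reseeding was compared with that of the sites around them. The numbered chromosomes (1 to 38) were divided into fixed windows of 1 Mb, and a peak was taken where its window held 20 or more peaks (a dense window) but the midpoint of the nearest other peak lay more than 50 kb away. This gave 1203 lone peaks out of 59081 peaks in the table (2.04%), or 2.43% of all peaks in dense windows. No measured accessibility entered the choice, but a peak had to have been called by the authors for it to be counted, as a member or as a neighbour.

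The libraries came from MDCKII (Madin-Darby canine kidney type II), an epithelial line of dog kidney that forms polarised monolayers. Both groups were wild type by their sample names and both were first grown for 7 d until mature. The mature group (2 libraries, A and B) was taken at that point, and the reseeded group (2 libraries, A and B) was detached from the mature monolayer and plated again for 2 h. Chromatin was probed with ATAC-seq, a method that lets the transposase Tn5 insert adapters into open DNA, and the study concerns folds of the nuclear envelope and how chromatin is arranged. The labels do not say whether libraries A and B of a group are separate cultures, and p-values therefore reflect the spread between these libraries alone, which may be technical. The sample names carry one leading code in the mature group and another in the reseeded group, so that an effect of whatever that code marks and an effect of reseeding cannot be told apart. Detachment and renewed attachment were not sampled separately, and no gene names accompany the peaks, so the epithelial label was not checked against marker genes.

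Open sites of mammalian chromatin are mostly promoters, enhancers and insulator sites. In gene-rich regions they usually sit close together, because promoters, their enhancers and neighbouring genes lie near each other, whereas a site with no open neighbour over a long stretch is typically distal to promoters or belongs to an isolated gene. Detaching an epithelial monolayer breaks cell-cell and cell-matrix contacts and changes the shape of the cell and its nucleus. Peaks were not placed on genes here, so which of these classes a lone peak belongs to is not given.

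The count totals were 8759513 for mature A, 6253706 for mature B, 16906566 for reseeded A and 24015663 for reseeded B. Over the 1203 lone peaks, mature A and B correlated in log2(CPM + 0.5) with Pearson's r = 0.969 and reseeded A and B with r = 0.990, and a mature with a reseeded library with r of 0.289 to 0.302; peaks are not independent replicates. CPM are counts scaled to a common library total with trimmed-mean (TMM) factors. The median lone peak held 75 and 56 counts in mature A and B and 193 and 280 counts in reseeded A and B, so low folds were resolved less well at lone peaks that were weak in mature cells. All 1203 lone peaks passed the filter on low counts.

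The lone peaks were spread widely. They lay on all 38 numbered chromosomes, with 7 to 71 on each, and in 686 of the 1103 dense windows (62.2%). In 324 windows there were at least 2 of them, and the most in any window was 7. The median distance to the nearest other peak was 68.6 kb and the median stretch without another peak, from the neighbour on one side to that on the other, was 201 kb. By comparison, the other 48383 peaks of dense windows had their nearest neighbour at a median of 3.15 kb. The windows around lone peaks held a median of 31 peaks and at most 107.

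With TMM scaling, accessibility at lone peaks shifted towards gains after reseeding, and the size of that shift depended on the scaling. A peak had to be called to be listed, and the reseeded libraries held 73.2% of the counts. Under 5 CPM were 413 lone peaks in mature cells and 99 in reseeded cells, but no lone peak in both. Weak peaks may thus be listed through the reseeded group alone, and the part of this in the gains was not tested. Of the lone peaks, 473 (39.3%) gained 2-fold or more and 140 (11.6%) lost 2-fold or more, whereas over all 59076 tested peaks these shares were 26.9% and 15%. The excess was larger among strong gains: 231 lone peaks (19.2%) were at least 4-fold higher, against 10.1% of all tested peaks, while 74 (6.15%) were at least 4-fold lower, against 6.04%. The median log2 fold of reseeded over mature was 0.47 at lone peaks and -0.01 over all tested peaks. Peaks counted here also had an adjusted p under 0.05 in edgeR's quasi-likelihood test. By that test alone, 1040 lone peaks (86.5%) were called, 633 higher and 407 lower. The share called in either direction was near that of all peaks, 84.1%. Called higher were 52.6% of lone peaks against 42.3% of all peaks, and called lower 33.8% against 41.8%. The groups did not overlap in CPM at 1114 lone peaks (92.6%), against 91.5% of all tested peaks, and the reseeded group was the higher one at 55.8% of lone peaks, against 45.7% of all. Loess offsets, which trend the scaling on the level of a peak, moved the median of all tested peaks from -0.01 to -0.11 and gave smaller gains. The shares of lone peaks and of all tested peaks were then 19.8% and 16.6% for 2-fold gains, 14.2% and 16.4% for 2-fold losses, 5.99% and 4.21% for 4-fold gains and 7.73% and 7.64% for 4-fold losses. With these offsets 4-fold losses thus outnumbered 4-fold gains at lone peaks, their median log2 fold was 0.02, and 36.7% were called higher and 34.2% lower, against 33.3% and 41.1% of all tested peaks.

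Lone peaks were weaker than other peaks of dense windows in mature cells and closer to them after reseeding. Their median level was 8.70 CPM in mature A, 9.07 in mature B, 11.3 in reseeded A and 11.5 in reseeded B. Among the other peaks of dense windows the medians were 12.8, 13.1, 13.1 and 13.0 CPM in the same order. Both reseeded medians of the lone peaks thus lay above both mature medians, whereas those of the other peaks were nearly level over the 4 libraries. In mature cells 34.3% of lone peaks and 17.7% of the other peaks were under 5 CPM, while in reseeded cells the shares were 8.23% and 8.01%. No lone peak was under 5 CPM in both groups.

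Divided by fold, lone peaks with strong gains had low mature levels and those with strong losses low reseeded levels. The division in part fixes this, as no lone peak was under 5 CPM in both groups. The 231 peaks that were at least 4-fold higher had median levels of 1.74 and 2.43 CPM in mature A and B and 12.3 CPM in each reseeded library. The 74 peaks that were at least 4-fold lower went from 12.9 and 14.7 CPM in mature A and B to 1.55 and 1.8 CPM in reseeded A and B. Between these ends, 427 lone peaks were called with folds under 2, at medians of 15.2 CPM in mature and 14.5 CPM in reseeded cells, and 163 were not called. The mature libraries differed where gains were strong. The median log2 ratio of mature B to mature A was 0.34 at lone peaks at least 4-fold higher and 0.25 at those 2-fold to 4-fold higher. It was -0.03 at those not called and 0.11 at those at least 4-fold lower. This difference went with low level and was not particular to lone peaks. Up to 7.59 CPM averaged over the groups, it was 0.23 at lone peaks and 0.23 at the other peaks of dense windows. Above 23.7 CPM it was -0.11 and -0.06. The part of this difference in the gains was not tested. At least 4-fold gains made up 15.5% of lone peaks without mature A and 22.3% without mature B.

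In 2-fold gains and median fold, lone peaks of dense windows lay closer to lone peaks elsewhere than to the other peaks in dense windows. Lone peaks of sparse windows, those with fewer than 20 peaks, numbered 1325: of the tested ones 40.0% gained and 13.6% lost 2-fold or more, with a median log2 fold of 0.53. The other peaks of dense windows, which share the megabases but not the isolation, had 25.1% and 15.5% and a median log2 fold of -0.06. Limiting these to the 25280 tested peaks of windows that also held a lone peak gave 27.8% and 14.3% and a median of 0.05. Peaks with close neighbours in sparse windows had 35.8% higher, 11.3% lower and a median of 0.36, so their gains lay between those of the lone and of the other peaks of dense windows, while their 2-fold losses were the least frequent of these classes. The ratio of 2-fold gains to 2-fold losses was 3.38 at lone peaks of dense windows, 3.18 at peaks with close neighbours in sparse windows, 2.94 at lone peaks of sparse windows and 1.62 at the other peaks of dense windows. Losses of at least 4-fold ordered the classes differently, with 6.15% at lone peaks of dense windows nearer to 5.89% at the other peaks there than to 8.01% at lone peaks of sparse windows. With loess offsets the median was 0.02 at lone peaks of dense windows and in both classes of sparse windows, and -0.12 at the other peaks of dense windows. These are descriptions of the classes, since peaks of a library are not replicates; tests over libraries follow.

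**Figure D1:**
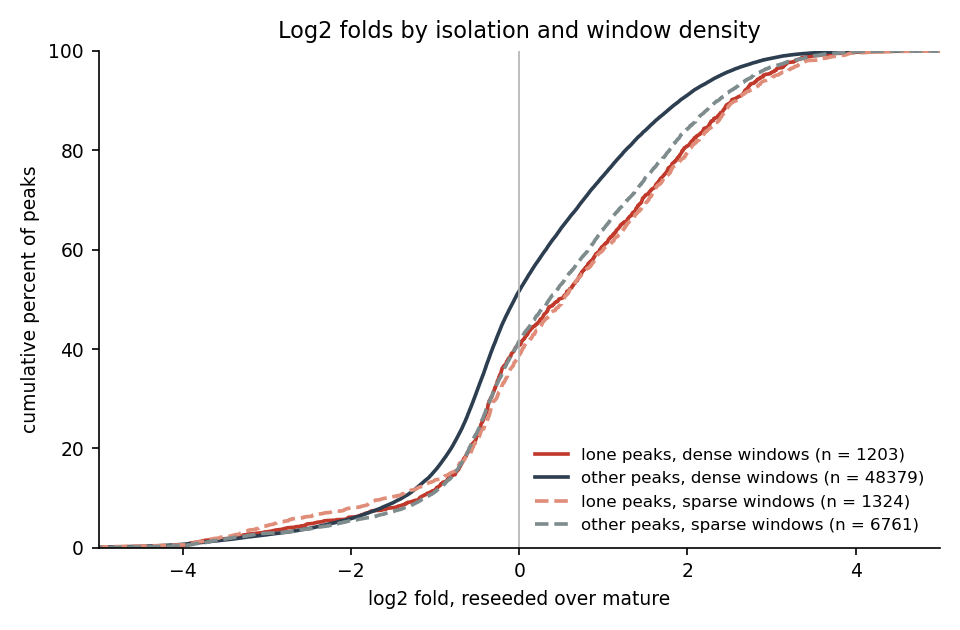
Cumulative percent of tested peaks (vertical axis) against log2 fold of reseeded over mature (horizontal axis) for lone and other peaks of dense windows (20 or more peaks per Mb, solid) and sparse windows (dashed). The curves of lone peaks from dense and sparse windows run close together, with medians of 0.47 and 0.53, to the right of the other peaks of dense windows, with a median of -0.06.

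Within dense windows the share of gains increased in steps with distance to the nearest peak, and the lone peaks stood at the end of that series. At least 2-fold gains made up 13.2% of peaks with a neighbour within 1 kb, 21.2% at 1 to 2 kb, 27.3% at 2 to 5 kb, 30.9% at 5 to 10 kb, 32.9% at 10 to 20 kb, 35.8% at 20 to 50 kb and 39.3% of lone peaks. Losses of at least 2-fold went the other way, from 19.6% within 1 kb to 11.3% at 20 to 50 kb and 11.6% at lone peaks. Losses of at least 4-fold differed little, from 4.81% to 7.55% over all steps. The step across 50 kb was not sharp. Of 285 peaks of dense windows just inside that distance (45 to 50 kb) 38.9% gained and 10.2% lost 2-fold or more, and of 231 lone peaks just beyond it (50 to 55 kb) 40.7% and 12.6%. At the other threshold, lone peaks in windows of 18 or 19 peaks (133 peaks) had 40.6% and 14.3%, and those in windows of 20 or 21 peaks (125 peaks) 44.0% and 8.80%.

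**Figure D2:**
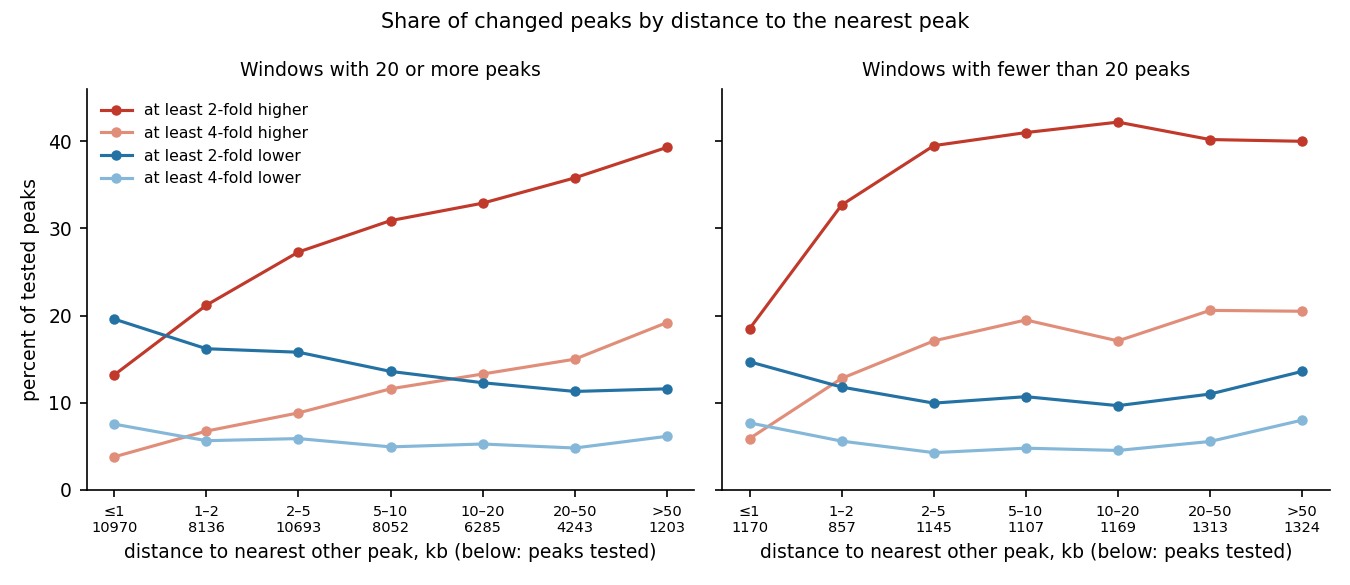
Percent of tested peaks at least 2-fold or 4-fold higher or lower (vertical axis) by distance to the nearest other peak in kb (horizontal axis, with the number of peaks), in dense windows (left) and sparse windows (right). In dense windows 2-fold gains climb from 13.2% to 39.3%, and in sparse windows they are near 40% from 2 kb onward.

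Beyond 50 kb the gains did not climb further. At least 2-fold higher were 41.7% of the 393 lone peaks with a neighbour at 50 to 60 kb, 40.1% of 314 at 60 to 75 kb, 39.8% of 256 at 75 to 100 kb, 32.7% of 165 at 100 to 150 kb and 36.0% of 75 beyond 150 kb. In that last class 4-fold changes were tilted the other way, with 7 gains (9.33%) and 11 losses (14.7%). By the number of peaks in the window, 2-fold gains made up 40.6% of lone peaks in windows of 20 to 24 peaks, 43.8% at 25 to 29, 38.1% at 30 to 39, 37.2% at 40 to 59 and 34.0% of the 103 lone peaks in windows of 60 or more. The corresponding 2-fold losses were 11.4%, 7.81%, 11.5%, 13.6% and 17.5%.

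The level of a peak moved with isolation, and the excess of 2-fold gains was largest among weak and middling lone peaks. All tested peaks were divided into 5 equal classes by their CPM averaged over the groups, and 32.4% of lone peaks fell in the lowest class (up to 7.59 CPM) against 18.2% of the other peaks of dense windows. In that class 63.3% of lone peaks and 50.1% of the other peaks were at least 2-fold higher. From 7.59 to 10.5 CPM the shares were 40.6% and 26.9%, and from 10.5 to 15.1 CPM 33.3% and 23.3%. From 15.1 to 23.7 CPM they were 21.4% and 19.3%, and in the highest class (above 23.7 CPM) 7.88% and 9.48%, so the excess of 2-fold gains was small or absent at strong lone peaks. Gains of at least 4-fold were more frequent at lone peaks there too, at 9.09% against 6.70% from 15.1 to 23.7 CPM and 4.24% (7 peaks) against 2.40% above it. Losses of at least 2-fold were less frequent at lone peaks than at the other peaks in each class, for example 7.18% against 16.3% from 10.5 to 15.1 CPM. Among peaks of at least 10 CPM, a limit set after the data were seen, 22.9% of lone peaks were 2-fold higher and 7.88% lower, their median log2 fold was -0.14, and it exceeded that of the other peaks by 0.10 in place of 0.53. An averaged level is low wherever a peak is near the floor in one group, so these classes are not independent of the fold, and the part of the level in the difference was not tested further.

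**Figure D3:**
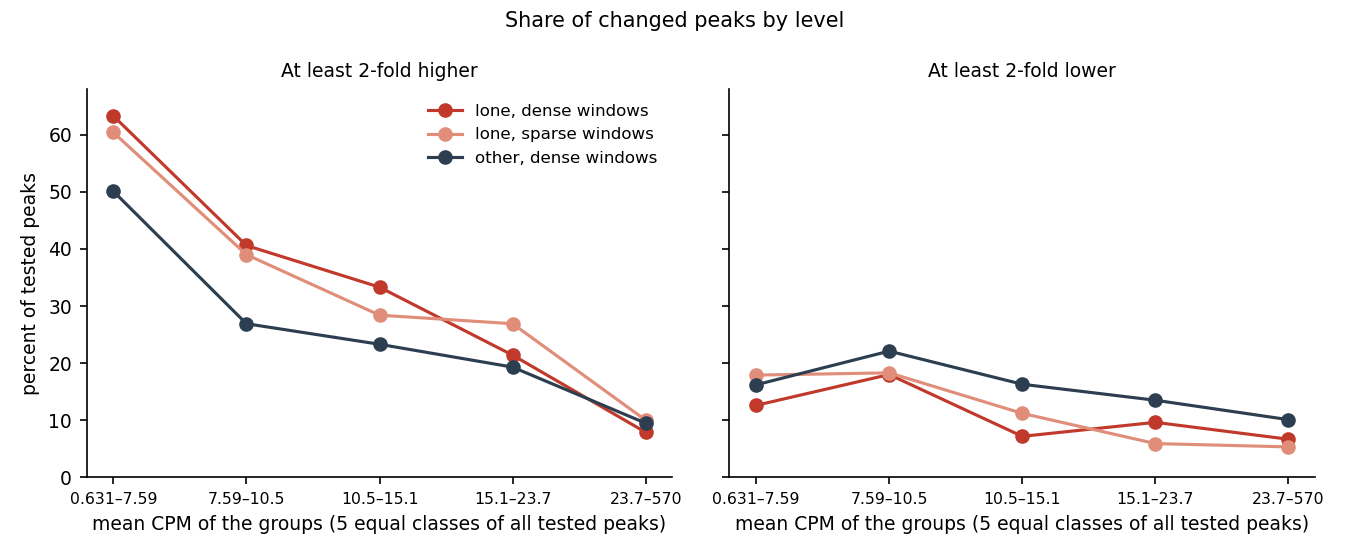
Percent of tested peaks at least 2-fold higher (left) or lower (right) on the vertical axis, by 5 equal classes of CPM averaged over the groups on the horizontal axis, for lone peaks of dense and sparse windows and the other peaks of dense windows. Lone peaks lie above the other peaks for gains in the 3 lower classes (63.3%, 40.6% and 33.3% against 50.1%, 26.9% and 23.3%) and below them for losses in each class.

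Summed over all lone peaks, the difference from the other peaks of dense windows was small but larger than the spread between libraries. Lone peaks held 1.52% and 1.53% of all counts in mature A and B and 1.78% and 1.8% in reseeded A and B. Both reseeded libraries thus lay above both mature ones. The log2 ratio of their summed counts to those of the other peaks of dense windows was higher by 0.25 in reseeded cells, with SDs of 0.00778 between the mature and 0.0127 between the reseeded libraries (n = 2 each). A 2-sided exact permutation test over libraries gave p = 0.333, the smallest that 2 against 2 allows. Against lone peaks of sparse windows the same difference was -0.05 (exact permutation p = 0.333). Sums weight strong peaks most, and gains were few among strong lone peaks.

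The sums were also compared on each chromosome, a comparison added after the data were seen. On 33 of 38 chromosomes the lone peaks gained relative to the other peaks of dense windows, with a median log2 difference of 0.18. By edgeR's quasi-likelihood test of the interaction, adjusted over the chromosomes, 32 were called (84.2%), 29 with lone peaks relatively higher and 3 with them relatively lower. The largest differences were on chromosome 32 (15 lone peaks, log2 difference 0.76, SE 0.05), chromosome 18 (13 peaks, 0.69, SE 0.03) and chromosome 27 (44 peaks, 0.65, SE 0.02). Chromosomes 30 (25 peaks, -0.27, SE 0.02), 33 (16 peaks, -0.22, SE 0.05) and 36 (7 peaks, -0.21, SE 0.04) were the 3 in the other direction. The call on chromosome 36 was lost without mature A and without mature B (adjusted p = 0.144 by edgeR in each). Without mature A calls were also lost on chromosomes 16, 19, 29 and 38 and one was gained on 24, without mature B they were lost on 19, 20 and 29, without reseeded A on 23, and without reseeded B on 16, 20, 23, 29 and 38. Against the lone peaks of sparse windows the calls were split, 13 higher and 15 lower, with a median of 0.00. By medians of single peaks, lone peaks exceeded the other peaks on 31 chromosomes. Medians and sums differed in sign on some of the called chromosomes: by medians lone peaks were higher by 0.12 on chromosome 33, and on chromosomes 28, 29 and 31 their differences were -0.26, -0.33 and -0.20. On chromosome 9 the lone peaks had a median log2 fold of 1.05 and the other peaks of dense windows -0.30, and 17 of 33 lone peaks were at least 2-fold higher. On chromosome 4, 27 of 53 were, with medians of 1.13 and 0.14. Over all lone peaks this share was 39.3%, and over all tested peaks 26.9%. It was larger on chromosomes 32 (11 of 15) and 34 (11 of 18) and small on chromosome 26 (1 of 23).

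The share of lone peaks called against the rest of their megabase was near that of all peaks so tested, with a larger share above it. Each peak of a dense window was tested against the summed counts of all other peaks in its window, by the interaction of group and kind of count in edgeR's quasi-likelihood test with a term for each library. Of the 1203 lone peaks 1019 were called (84.7%), against 80.5% of all 49582 peaks so tested. Lone peaks that exceeded their window in change numbered 606 (50.4%, against 41.7% of all), and 413 fell below it (34.3%, against 38.7%). At least 2-fold above their window were 450 lone peaks (37.4%, against 24.7%), and at least 2-fold below it 183 (15.2%, against 14.9%). The median difference from the window was 0.36 on the log2 scale at lone peaks and 0.02 at the other peaks. Peaks with 2-fold changes nearly always differ from a window sum, whatever their isolation: 98.9% of the lone peaks and 99.0% of the other peaks with 2-fold gains were called above their window.

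The change of lone peaks was weakly correlated with that of the rest of their window. The summed other peaks of the windows had a median log2 fold of 0.12, with a range from -2.23 to 1.41. Where the rest of the window fell (451 lone peaks), 34.8% of lone peaks gained and 14.9% lost 2-fold or more. Where it rose (752 lone peaks), the shares were 42.0% and 9.71%. Among the other peaks of dense windows the corresponding shares were 17.5% and 19.1% where the rest fell and 34.8% and 11.1% where it rose. Across the 1203 lone peaks, which share libraries and in part windows, Pearson's r of the peak's and the window's log2 fold was 0.130 and Spearman's rho 0.135; among the other peaks of dense windows r was 0.287. Pairs formed by a lone peak and the next peak on either side had the same sign in 57.2% of 2399 pairs, with r of 0.121, and such pairs around the other peaks of dense windows in 59.4% of 96727, with r of 0.260. The shares of equal sign were thus near each other. Of the 473 lone peaks gained at least 2-fold, 178 (37.6%) had no such gain in either flanking peak, which is near the 40.4% of gained peaks among the others. Of the 140 lost, 106 (75.7%) had no such loss in either, against 54.7% of lost peaks among the others, and 61 (43.6%) had a flanking peak with a 2-fold gain, against 28.7%. The gained lone peaks had a 2-fold loss in a flanking peak at 82 sites (17.3%, against 18.6%). These differences were not tested. In the 189 windows with exactly 2 lone peaks, both had the same sign in 104 (55.0%), near the 57.2% and 59.4% of the flanking pairs. By fitted fold, both were at least 2-fold higher in 26 of these windows, both at least 2-fold lower in 1, and one was 2-fold higher and the other 2-fold lower in 19. No such counts were made for other pairs of peaks, so these do not set lone peaks apart.

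**Figure D4:**
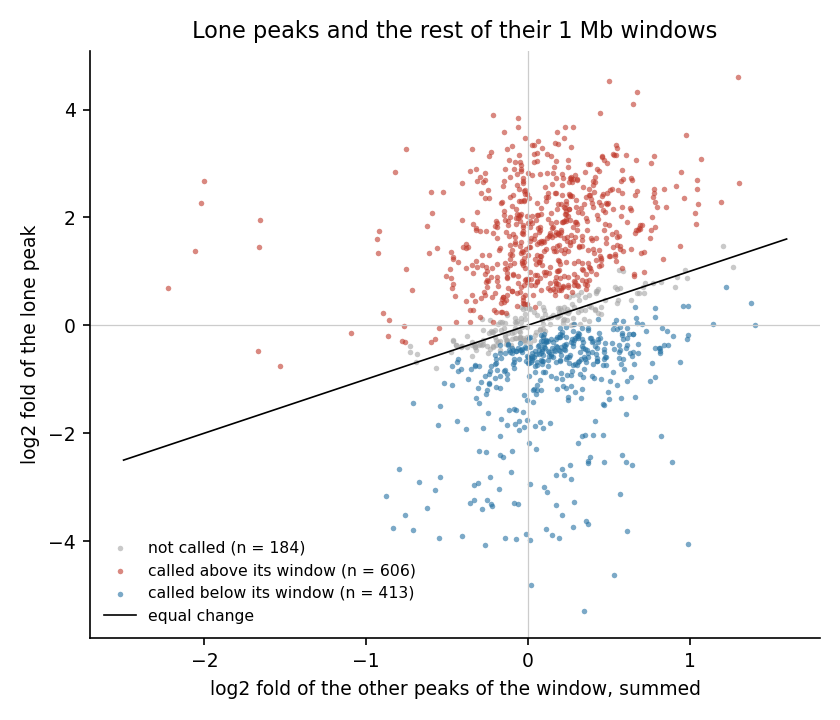
Log2 fold of each of 1203 lone peaks (vertical axis) against the log2 fold of the summed other peaks of its 1 Mb window (horizontal axis), coloured by edgeR's test of the difference between them. Window values, each a sum over many peaks, spread less than the single lone peaks, as such sums do beside any single peak. Of the lone peaks 606 were called above and 413 below the line of equal change. Together these are 84.7%, against 80.5% of all peaks so tested.

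The largest gains at lone peaks went from near the counting floor to clear peaks, and 5 of the 8 had a flanking peak with a fitted gain of 2-fold or more. Such neighbours were not particular to them: of all lone peaks gained at least 2-fold, 37.6% had no such called gain in either flanking peak. The largest gains and losses were chosen by rule among called lone peaks that averaged 50 counts or more and whose groups did not overlap. A count of 3 equals 0.348, 0.486, 0.175 and 0.123 CPM in mature A, mature B, reseeded A and reseeded B. On chromosome 4 from 69967008 to 69967508 (CanFam3.1), in a window of 29 peaks and with neighbours 74.0 and 84.6 kb away, there were 6 and 7 counts in mature A and B and 356 and 536 in reseeded A and B. These are 0.696, 1.13, 20.8 and 22.0 CPM, and the log2 fold was 4.60 (SE 0.23, adjusted p = 1e-18 by edgeR). Its flanking peaks had log2 folds of 0.63 and 0.83, so the gain was much larger at the lone site than at its neighbours. The rest of its window also rose in sum (log2 fold 1.3), and the peak exceeded it by 3.3 (SE 0.28). With loess offsets the log2 folds of the 8 gains lay between 1.68 and 3.93, all still called, and 5 of the folds moved by more than 1.5 times, that of this peak to 2.99.

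A peak on chromosome 12 from 24655300 to 24655800 had 1.04 and 1.46 CPM in mature A and B and 29.2 and 27.3 CPM in reseeded A and B, a log2 fold of 4.52 (SE 0.20). Here both flanking peaks, 99.7 and 63.0 kb away, were higher too, with log2 folds of 2.68 and 2.84. On chromosome 7 from 15678569 to 15679069 levels of 1.51 and 1.13 CPM in the mature libraries became 25.6 and 28.6 CPM in the reseeded ones, a log2 fold of 4.33 (SE 0.20), between flanking peaks at -0.20 and 0.20. In both cases the groups lay far apart and the libraries of a group close together.

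The largest gain in absolute level among these was on chromosome 4 from 28424668 to 28425168, in a window of 64 peaks. It had 2.90 and 4.37 CPM in mature A and B and 51.4 and 54.1 CPM in reseeded A and B, a log2 fold of 3.91 (SE 0.14). The other peaks of its megabase fell slightly in sum (log2 fold -0.21), and the peak exceeded them by 4.12 (SE 0.14, adjusted p = 1.01e-22 by edgeR). Its flanking peaks differed, with log2 folds of -0.95 at 105 kb and 2.26 at 61.9 kb. On chromosome 15 from 32285216 to 32285716 a log2 fold of 3.93 (SE 0.17), from 1.62 and 2.43 CPM to 30.7 and 29.5 CPM, stood 59 kb from a peak with a log2 fold of -2.53. The lone peak and this neighbour thus changed in opposite directions.

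Of the remaining 3 gains, the one on chromosome 10 from 42600742 to 42601242 had a log2 fold of 4.09, the one on chromosome 30 from 28278751 to 28279251 had 3.84 and the one on chromosome 11 from 64013360 to 64013860 had 3.67. Their flanking peaks stood at 3.07 and -0.41, at 1.61 and 3.65, and at -0.02 and 1.32 in the same order. For the chromosome 30 peak, with 6 and 11 counts in the mature libraries, the fold was 14.3, and between 9.25 and 23.3 with 1 library left out. It was 23.3 without mature B and 9.25 without mature A.

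The 8 largest losses at lone peaks that met the rule were 13.3-fold to 28.3-fold. At 3 of the 8 a flanking peak also had a fitted loss of 2-fold or more. Of all lone peaks lost at least 2-fold, 75.7% had no such called loss in either flanking peak. With loess offsets each of the 8 was larger by more than 1.5 times, with log2 folds between -6.12 and -5.33. On chromosome 31 from 26748012 to 26748512, a peak with neighbours 213 and 291 kb away fell from 228 and 169 counts in mature A and B to 16 and 23 counts in reseeded A and B. In CPM these are 26.4, 27.4, 0.934 and 0.943, for a log2 fold of -4.82 (SE 0.18, adjusted p = 1.16e-21 by edgeR). Both groups were tight, the flanking peaks had log2 folds of -0.68 and -0.27, and the rest of the megabase stood at 0.02 in sum. No other lone peak that met the rule lost as much.

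On chromosome 36 from 6276523 to 6277023 the levels were 14.5 and 14.7 CPM in mature A and B and 0.817 and 0.902 CPM in reseeded A and B, a log2 fold of -4.06 (SE 0.27). The rest of its window rose (log2 fold 0.99), one flanking peak rose by 3.78 on the log2 scale and the other by 1.65, so the lone peak fell within a region of gains. Its difference from the window, -5.05 (SE 0.21, adjusted p = 8.16e-21 by edgeR), was the largest of any named lone peak. On chromosome 37 from 1984168 to 1984668 levels went from 18.4 and 15.9 CPM to 1.28 and 1.11 CPM, a log2 fold of -3.86 (SE 0.23), between flanking peaks at 0.91 and -0.05.

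Chromosome 5 held a peak from 58467495 to 58467995 that went from 16.8 and 17.8 CPM in the mature libraries to 1.23 CPM in each reseeded library (log2 fold -3.80, SE 0.22). No other peak of the table lay within 1250 kb on one side, and the neighbour 90.8 kb away on the other had a log2 fold of -1.62. The first peak called on chromosome 16, from 29322 to 29822, fell from 13.8 and 16.0 CPM to 0.992 and 1.15 CPM (log2 fold -3.76, SE 0.25), and its single neighbour, 55.1 kb away, fell by 3.85 on the log2 scale. Here the loss was shared with the neighbour.

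Of the other 3 losses, that on chromosome 24 from 19785220 to 19785720 had a log2 fold of -3.89, that on chromosome 17 from 61316529 to 61317029 had -3.78 and that on chromosome 8 from 63367602 to 63368102 had -3.74. Flanking peaks of the first stood at 0.46 and 0.10 and of the next at -0.20 and 1.28, whereas those of the chromosome 8 peak were both lower, at -2.94 and -1.40. At the chromosome 24 peak mature A had 10.9 and mature B 17.0 CPM and at the chromosome 17 peak 9.39 and 16.5 CPM, so the mature libraries differed there more than at the chromosome 31 peak, while the reseeded libraries stayed at or under 0.992 CPM. The groups did not overlap at any of the 8.

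**Figure D5:**
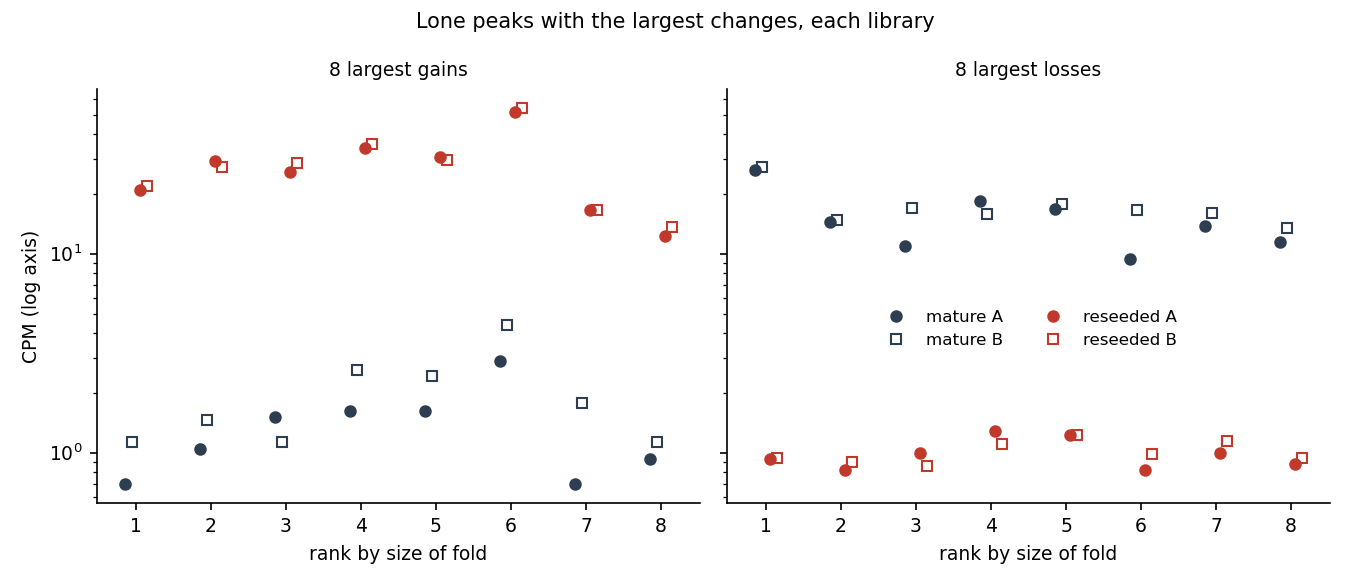
CPM on a log axis in each of the 4 libraries for the 8 lone peaks with the largest gains (left) and the 8 with the largest losses (right), ordered by fold, among those with a mean count of at least 50. Mature libraries lie between 0.696 and 4.37 CPM at the gains and between 9.39 and 27.4 CPM at the losses, and reseeded libraries between 12.3 and 54.1 CPM and between 0.817 and 1.28 CPM. The limit on counts in part sets these ranges.

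Among lone peaks that met the rule for named peaks, the 4 furthest above their window lay in windows whose other peaks fell in sum. One of the 4 is the chromosome 4 peak from 28424668 described before. In the window of chromosome 27 from 13000001 to 14000000, which held 43 peaks, the rest of the window fell by 2.00 on the log2 scale beside a lone peak from 13828398 to 13828898. That peak had 0.580 and 1.62 CPM in mature A and B and 6.65 and 6.52 CPM in reseeded A and B, a log2 fold of 2.68 (SE 0.36), and exceeded its window by 4.64 (SE 0.26, adjusted p = 1.03e-17 by edgeR). Its own fold of 6.42 rested on 5 and 10 mature counts and came to 4.05 with mature A left out and to 11.1 with mature B left out. Loess offsets gave it a log2 fold of -0.02, ending the call (adjusted p = 0.974 by edgeR). The neighbouring lone peak of the same window, from 13742337 to 13742837, rose from 1.74 and 2.43 CPM to 8.29 and 11.0 CPM (log2 fold 2.27, SE 0.25) and exceeded its window by 4.25 (SE 0.21), with a log2 fold of 0.61 under loess offsets (adjusted p = 0.0444 by edgeR). The peaks flanking these sites did not share the fall of the window: the outer neighbours had log2 folds of 0.70 and 1.37, and each of the pair flanks the other. As both are set against largely the same lost peaks, these are not independent differences.

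On chromosome 9 from 10524184 to 10524684, in a window of 56 peaks whose sum fell by 0.75 on the log2 scale, a lone peak rose from 0.464 and 1.13 CPM to 7.00 and 7.55 CPM. It exceeded its window by 4.03 (SE 0.30). Its fold of 9.70, from 4 and 7 mature counts, came to 6.42 with mature A left out and to 15.4 with mature B left out. Loess offsets gave a log2 fold of 0.43 in place of 3.28, and the call was lost (adjusted p = 0.406 by edgeR). Among lone peaks that met the rule for named peaks, those of chromosomes 36 and 31 already described lay furthest below their window. The rest of the window stood there at 0.99 and 0.02. Next, the site from 8924151 to 8924651 of chromosome 11 went from 12.4 and 16.5 CPM to 0.584 and 1.48 CPM and lay 4.03 below its window (SE 0.24). Its reseeded libraries differed, with 10 and 36 counts, and the fold of 12.9 was 24.3 without reseeded B and 9.65 without reseeded A.

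The 4 strongest lone peaks by level averaged over the groups were open in both states, and 3 of the 4 changed by less than 1.5-fold. This measure lowers the rank of peaks strong in one group alone. On chromosome 8 from 28795277 to 28795777 levels were 94.3 and 79.4 CPM in mature A and B and 68.7 and 67.9 CPM in reseeded A and B, a log2 fold of -0.36 (SE 0.07). A peak on chromosome 8 from 3704631 to 3705131, in a window of 79 peaks, had 91.2, 83.6, 66.4 and 68.9 CPM in the same order (log2 fold -0.37, SE 0.07). Both were called lower by edgeR (adjusted p = 2.17e-05 and 5.47e-06). Offsets trended on level (loess) gave 0.04 and 0.02 and ended both calls (adjusted p = 0.563 and 0.704 by edgeR). The peak on chromosome 4 from 43167806 to 43168306 had 84.4, 74.5, 73.1 and 73.1 CPM and was not called (log2 fold -0.13, SE 0.07, adjusted p = 0.0753 by edgeR). It was called lower without mature B (-0.22, adjusted p = 0.00093) and higher with loess offsets (0.26, adjusted p = 6.23e-05). In contrast, on chromosome 17 from 47165057 to 47165557, levels of 52.5 and 51.7 CPM rose to 83.8 and 87.6 CPM (log2 fold 0.72, SE 0.07), with a flanking peak 564 kb away at -2.64.

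The most isolated members did not share a direction. The peak on chromosome 7 from 52024517 to 52025017, 749 and 682 kb from its neighbours, rose from 3.71 and 3.56 CPM in mature A and B to 9.63 and 8.78 CPM in reseeded A and B (log2 fold 1.32, SE 0.21). Loess offsets gave 0.27 and ended that call (adjusted p = 0.265 by edgeR). One on chromosome 17 from 28155174 to 28155674, 838 and 640 kb from its neighbours, rose from 7.08 and 6.32 to 12.1 and 11.2 CPM (log2 fold 0.78, SE 0.16). Chromosome 7 from 70795593 to 70796093 held a lone peak with 90.1 CPM in mature A and 141 CPM in mature B, the highest mature B level of any member. It fell to 13.9 and 15.5 CPM (log2 fold -2.93, SE 0.12, adjusted p = 5.76e-21 by edgeR), whereas its flanking peaks, 552 and 579 kb away, were higher by 2.76 and 2.82. The fourth, on chromosome 8 from 11911979 to 11912479, had 8.47, 8.42, 8.46 and 7.79 CPM and was not called (log2 fold -0.06, SE 0.17, adjusted p = 0.722 by edgeR).

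With TMM scaling, some well-covered lone peaks were level across the libraries while their neighbours moved. Among lone peaks averaging 300 counts or more, those with folds nearest to none lay on chromosome 35 from 2786859 to 2787359 (49.5, 43.1, 44.6 and 46.3 CPM), chromosome 8 from 41254350 to 41254850 (27.5, 31.4, 30.8 and 29.4 CPM) and chromosome 2 from 10432735 to 10433235 (31.5, 30.9, 28.0 and 32.0 CPM). Their log2 folds were -0.04, 0.04 and -0.05, with SEs of 0.08 to 0.09, and their groups overlapped. Loess offsets gave 0.25, 0.23 and 0.15 (adjusted p = 0.00101, 0.0126 and 0.0986 by edgeR), so the chromosome 35 and chromosome 8 peaks were then called higher. The flanking peaks of the chromosome 2 site had log2 folds of 1.79 and 2.48, and that site fell below its window by 0.38 (adjusted p = 0.000598 by edgeR). The chromosome 35 site was also called below its window (-0.28, adjusted p = 0.0026 by edgeR), and the chromosome 8 site was not called (0.12, adjusted p = 0.248).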

How the data were processed

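The authors' deposited table holds raw counts per peak for 4 libraries, as whole numbers that are not normalized. Per the submitters' processing notes, Bowtie2 and MACS2 were used with build CanFam3.1. For their versions, for duplicates and multiply aligned reads, and for the unit counted (reads, fragments or insertions), the sources used here give nothing. As no molecular identifiers are named, counts may include PCR copies, and floors cover counting error only. Peaks were 501 bp wide, and positions are printed counting from 1.

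The analysis used edgeR 4.0.16 in R 4.3.3: filterByExpr (59076 of 59081 peaks kept), TMM factors, and the quasi-likelihood test over all tested peaks with Benjamini-Hochberg adjustment, called at an adjusted p under 0.05. An SE is the log2 fold divided by the root of F. For the window test, each peak's counts and the sums of the other peaks of its window formed 8 columns, fitted over 49582 peaks with a term per library. Sums per chromosome were fitted alike.

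Named lone peaks were, by rule, the 8 highest and 8 lowest folds, the 4 strongest, the 4 most isolated, the 4 furthest above and 4 furthest below their window and the 3 closest to no change. Lone peaks, thresholds and comparisons were chosen with earlier results of these data known. Alternatives were DESeq2 1.42.0, limma 3.58.1 voom, other scalings and filters, a replicate block, each library left out, and other window and distance limits. No genome or annotation of this build was used here, so no sequence is shown and no gene assigned. Summaries used numpy 2.4.6, pandas 2.3.3, scipy 1.17.1 and matplotlib 3.10.9.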

Additional observations from a re-analysis of the deposited data

How the results depend on the processing

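Of 296 alternatives for the shares, medians and differences, 246 kept the direction and stayed within 1.5 times a share or within 1 SD over the 4 pairs of a mature and a reseeded library. Of 341 for the 31 named peaks, 331 kept direction and threshold. Loess offsets trended on mean log2 CPM, which is low where folds are large, gave gains of 2-fold or more at 19.8% of lone peaks and of 4-fold or more at 5.99%, a median log2 fold of 0.02, and differences of 0.15 from the other peaks of dense windows and 0.00 from lone peaks of sparse windows. The percentage points by which lone peaks exceeded the other peaks were then 3.59 for 2-fold gains and -2.64 for 2-fold losses; the cause was not tested. Under these offsets the chromosome 8 peaks from 28795277 and from 3704631 stood at 0.04 and 0.02, and those of chromosome 4 from 43167806, chromosome 27 from 13828398 and chromosome 35 from 2786859 at 0.26, -0.02 and 0.25. The chromosome 7 peak from 52024517 and the chromosome 9 peak from 10524184 lost their calls, as did both chromosome 8 peaks and the chromosome 27 peak just given. The chromosome 8 peak from 41254350 was called, at 0.23, and so were the chromosome 4 and chromosome 35 peaks just given. Library size alone and upper-quartile factors gave -3.53 and -3.54 points for losses, and limma voom a difference of -0.03 from lone peaks of sparse windows.

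In the order median of lone peaks, difference from other peaks, difference from lone peaks of sparse windows, points for gains and points for losses, a distance of 25 kb gave 0.35, 0.42, -0.20, 12.17 and -4.08 and one of 100 kb gave 0.32, 0.37, -0.24, 8.30 and -2.96. Windows of 30 or more peaks gave 0.32, 0.43, -0.24 and, for losses, -3.00 points. Windows of 15 or more gave a median of 0.53, a difference of 0.03 from sparse windows and -3.27 points for losses. Shifting windows by 500 kb gave 0.53, 0.59 and 0.02, and -4.94 points for losses. Counting peaks within 500 kb either side gave a median of 0.52 and a difference of 0.00 from sparse windows. Comparing with windows that held a lone peak gave 0.42, with 11.49 points for gains and -2.71 for losses. Among peaks of at least 10 CPM, 22.9% of lone peaks gained 2-fold, 11.6% gained 4-fold and 3.25% lost 4-fold or more, with a median of -0.14, differences of 0.10 and -0.09, and 5.36 and -5.76 points. With a library left out the median ranged from 0.40 to 0.49, the differences from 0.45 to 0.55 and from -0.10 to -0.03, and the points from 13.19 to 14.99 and from -4.20 to -3.81. Each lowest size of gain was without mature A.

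With the replicate block 85.1% of lone peaks were called and the median was 0.48; the difference of A and B in one group correlated with that in the other at r = 0.0314 over all peaks, so the letters did not show pairing. The window test with a term per library has no separate block fit. Mature totals were lowest and limit small folds most.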
